A study of Mus musculus with 6 samples.

Results

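R-spondins and other modulators of Wnt signalling were followed in fat-forming mouse stromal cultures exposed to terahertz radiation. The 10 genes were Rspo1, Rspo2, Rspo3, Sfrp1, Sfrp2, Wnt5a, Dkk2, Dkk3, Lgr4 and Axin2, out of 18193 genes with a probe set of their own. Every probe set annotated to exactly 1 of these symbols was taken, which gave 22 of the 45037 probe sets. The genes were selected on knowledge of the irradiated minus control differences of these same arrays, so those differences are given as a description and support nothing.

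The cells were mouse mesenchymal stem cells from a commercial supplier, grown in a medium with rosiglitazone at 1 µM, insulin at 5 µg/ml, 3-isobutyl-1-methylxanthine (IBMX, which blocks cAMP breakdown) at 100 µM and dexamethasone at 1 µM. These agents drive fat cell formation, and both groups received them 48 h before exposure. Irradiated cultures received 12 h of broadband terahertz pulses centred near 10 THz, and each control culture stood beside its irradiated partner with both kept at 26 to 27 °C. In 3 independent experiments, 1 irradiated and 1 control culture were each measured on an Affymetrix array, which gave 6 arrays, and whether the experiments used 1 lot of cells is not given in the sources used here. The sex, age and strain of the donor animals are likewise not given there.

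Wnt proteins are secreted lipid-modified ligands that bind Frizzled receptors. In the canonical branch they keep beta-catenin from being degraded, so that it can enter the nucleus and activate genes with TCF and LEF factors. R-spondins bind the receptors Lgr4, Lgr5 and Lgr6 and remove the ubiquitin ligases Znrf3 and Rnf43 from the membrane, which leaves more Frizzled at the surface. Sfrp proteins bind Wnts outside the cell, and Dickkopf proteins such as Dkk2 act on the coreceptors Lrp5 and Lrp6. In stromal precursors canonical Wnt signals are known to hold back fat cell formation and to favour bone formation.

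Levels and differences are on a log2 scale throughout. Probe sets differ in how well they bind, so levels were not compared between probe sets. Values ran from 1.77 to 14.53 with array medians of 4.74 to 4.80. A probe set with a mean under 6 over the 6 arrays is called dim, and 16111 probe sets (35.8%) were at or above that level. The number of arrays limits the precision. The hybridisation controls, bacterial and phage transcripts added to each sample before hybridisation, differed between irradiated and control arrays by 0.08, -0.03 and 0.50 in experiments 1, 2 and 3 (18 probe sets).

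Markers of the labelled cell type were checked first. Of 7 measured stromal markers 5 were above the dim level, among them Pdgfra and Pdgfrb, while Thy1 was dim at 4.09. All 7 measured fat cell markers and all 8 macrophage markers were above it, and 0 of 5 endothelial and 1 of 5 epithelial markers. The mean log2 level of the 8 macrophage markers lay between 11.83 and 12.42 on control arrays and between 11.56 and 12.21 on irradiated arrays. The RNA therefore carried macrophage transcripts beside stromal and fat cell ones. Each of the 8 was lower on average in irradiated cultures, as were 7992 of the 16111 probe sets above the dim level. In all 3 experiments 4 of the 8 were lower, beside 2997 of those 16111 probe sets. The median difference of the 8 markers was -0.225, 0.005 and -0.11 in experiments 1, 2 and 3. In such bulk RNA, fewer cells of a type and less RNA per cell cannot be told apart.

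Of the 22 probe sets, 14 were above the dim level and they covered 7 of the 10 genes. Rspo1, Dkk2 and Axin2 had dim probe sets only. One of the 2 Axin2 probe sets, 1436845_at, lay just under the level at a mean of 5.97, and the member nearest above it was the Wnt5a probe set 1448818_at at 6.83.

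The widest difference among the members was that of Rspo2, an R-spondin needed for limb and lung development. Its probe set 1455893_at read 8.72, 8.18 and 8.25 on the control arrays of experiments 1, 2 and 3. On the irradiated arrays it read 9.39, 9.07 and 9.12. Every irradiated array was above every control array, and experiment 1 was the highest in both groups. Group means were 8.38 ± 0.29 (SD, n = 3) and 9.19 ± 0.17 (SD, n = 3). The paired log2 differences were 0.67, 0.89 and 0.87, a mean of 0.81 ± 0.10 (SE of the limma fit), or 1.75-fold. Among the 16111 probe sets above the dim level this difference ranked 8 from the highest and 36 by absolute size. Leaving out 1 experiment at a time gave 0.77 to 0.88, and without experiment 3, whose hybridisation controls differed by 0.50, it was 0.78.

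The second Rspo2 probe set did not share this pattern. Probe set 1430104_at was dim, at 5.14, 5.18 and 5.42 in controls and 4.83, 5.31 and 5.26 in irradiated cultures. The groups overlapped, and the mean difference was -0.11 ± 0.12 (SE). The higher Rspo2 level in irradiated cultures thus rests on 1 probe set, and which probe set follows the transcript was not tested.

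The other R-spondins lay closer to 0. Rspo3, which is known for its part in vessel and bone formation, read 8.15, 8.30 and 8.28 in controls and 8.41, 8.14 and 8.28 in irradiated cultures on probe set 1455607_at. It was higher in experiment 1, lower in experiment 2 and equal in experiment 3. Its mean difference was 0.03 (95% interval -0.24 to 0.31) and became -0.08 without experiment 1. The dim Rspo3 probe set 1443187_at differed by -0.56, -0.36 and 0.20. Rspo1 was dim, between 3.00 and 3.53 on all arrays, and its mean difference of -0.05 became 0.16 without experiment 3.

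**Figure D1:**
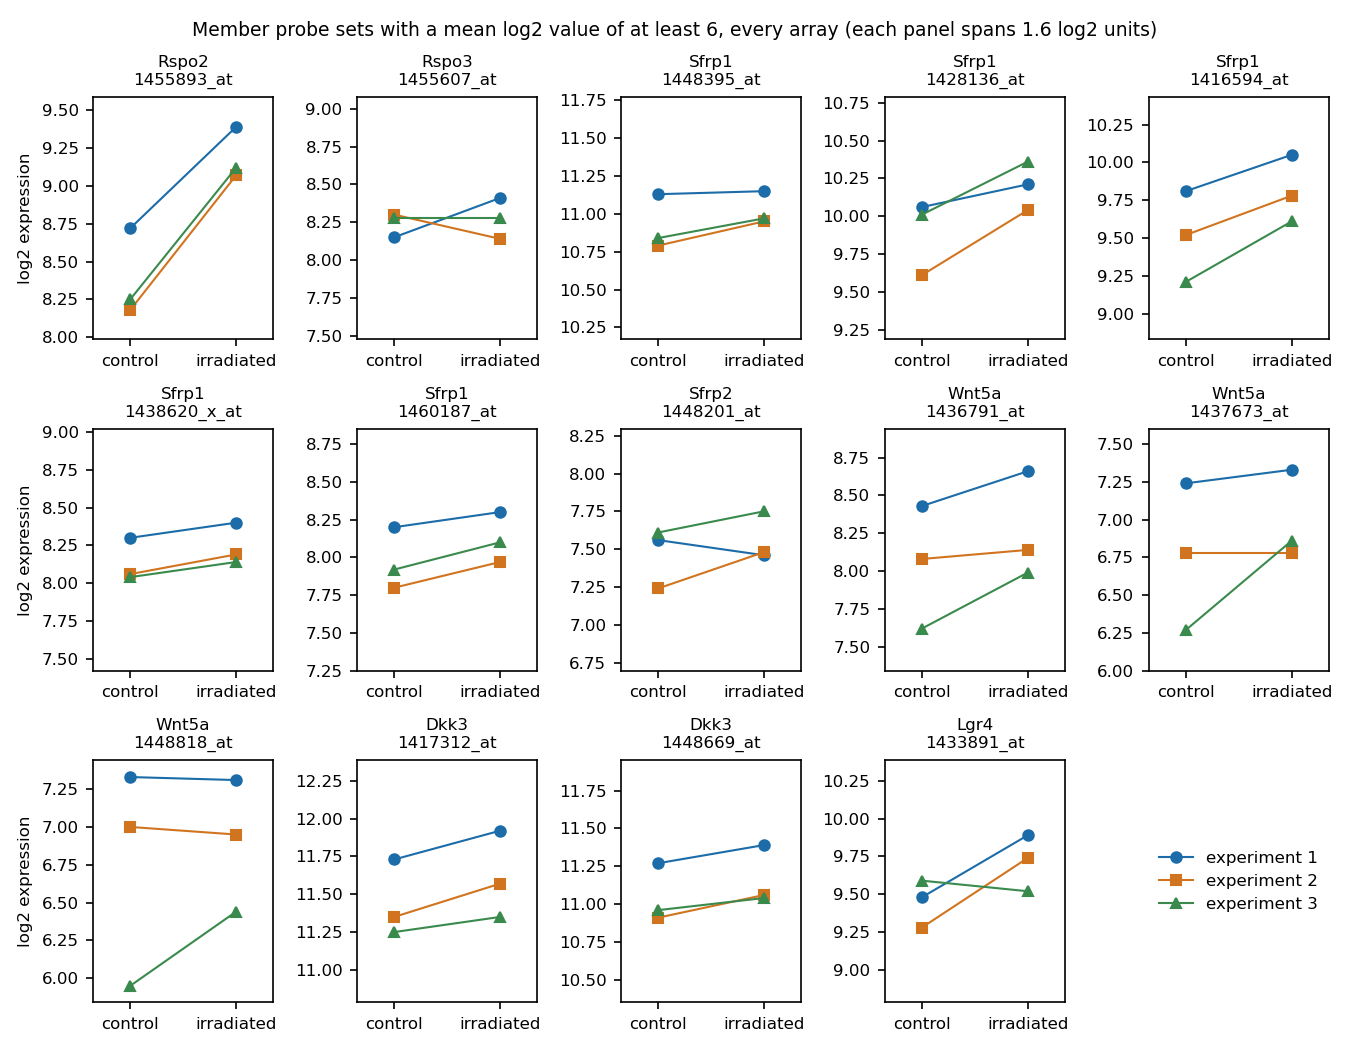
Log2 expression (y axis, each panel spanning the same width) on the control and irradiated array of each experiment, joined by a line, for the 14 member probe sets above the dim level. Rspo2 lies between 8.18 and 8.72 in controls and between 9.07 and 9.39 in irradiated cultures with no overlap, while the groups overlap in the other 13 panels.

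Lgr4 is a receptor that binds all R-spondins. Its probe set 1433891_at read 9.48, 9.28 and 9.59 in controls and 9.89, 9.74 and 9.52 in irradiated cultures. It differed by 0.41, 0.46 and -0.07 in the 3 experiments, so experiment 3 went the other way and the groups overlapped. The mean difference was 0.27 ± 0.13 (SE), or 0.44 without experiment 3 and 0.17 without experiment 2. The other Lgr4 probe set, 1453765_at, was dim and differed by 0.06 ± 0.13 (SE).

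Sfrp1, a secreted Wnt-binding protein, had 5 probe sets, all above the dim level and all higher in irradiated cultures in all 3 experiments. Probe set 1428136_at read 10.06, 9.61 and 10.01 in controls and 10.21, 10.04 and 10.36 in irradiated cultures, a difference of 0.31 ± 0.10 (SE). Probe set 1416594_at read 9.81, 9.52 and 9.21 in controls and 10.05, 9.78 and 9.61 in irradiated cultures, a difference of 0.30 ± 0.10 (SE). Within each experiment the irradiated array was the higher, but the groups overlapped because the experiments themselves differed. The 3 other probe sets differed by 0.10, 0.11 and 0.15, so the size ran from 0.10 to 0.31 between probe sets of 1 gene. One of these, 1438620_x_at, is of a type that can bind related transcripts, as the x in its name marks. The 5 probe sets share a gene and are not independent of each other.

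Sfrp2, the related secreted protein, had 1 probe set. It read 7.56, 7.24 and 7.61 in controls and 7.46, 7.48 and 7.75 in irradiated cultures. Experiment 1 went down and the other two up, and the mean difference was 0.09 (95% interval -0.17 to 0.35).

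Wnt5a encodes a ligand that mainly acts outside the beta-catenin branch, through receptors such as Ror2. Its probe set 1436791_at read 8.43, 8.08 and 7.62 in controls and 8.66, 8.14 and 7.99 in irradiated cultures. The difference was positive in all 3 experiments, with a mean of 0.22 ± 0.11 (SE), and the groups overlapped. Probe set 1437673_at differed by 0.09, 0.00 and 0.59 and probe set 1448818_at by -0.02, -0.05 and 0.49. Both therefore drew their mean differences of 0.23 and 0.14 largely from experiment 3, without which they were 0.05 and -0.04. Experiment 3 is also the one with the brighter hybridisation controls on its irradiated array, and their part in these values was not tested. The remaining probe set was dim, at a mean of 3.14.

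The Dickkopf genes differed in level of detection. Dkk3, a divergent family member, read 11.73, 11.35 and 11.25 in controls and 11.92, 11.57 and 11.35 in irradiated cultures on probe set 1417312_at. The irradiated array was the higher in each experiment, by 0.19, 0.22 and 0.10, with a mean of 0.17 ± 0.09 (SE). Its other probe set, 1448669_at, differed by 0.12, 0.15 and 0.08, so both had 1 direction in 3 experiments and similar size. Dkk2 was dim, between 4.23 and 5.02, and differed by -0.14 ± 0.11 (SE).

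Axin2, a scaffold of the complex that degrades beta-catenin, is itself switched on by beta-catenin and TCF factors and is a common readout of that branch. Probe set 1436845_at read 6.21, 5.90 and 5.85 in controls and 6.12, 5.98 and 5.77 in irradiated cultures. The groups overlapped, and the mean difference was -0.03 (95% interval -0.26 to 0.20). The other Axin2 probe set lay near 2.90 in both groups, far under the dim level.

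Promoter sequences of members were taken from RefSeq (build GRCm38.p6), from 250 bases before to 50 after a start of transcription. Entries matched for 5 of the 10 members, and Rspo2, Rspo3, Sfrp1, Wnt5a and Dkk3 had none. Both strands were searched for CTTTGA and CTTTGT, the core of the TCF and LEF motif, and for TGACG, the shared core of the cAMP response element, since IBMX was in the medium. CTTTGA and TGACG can share letters where they meet. Of the 32851 promoters in the table, 16.0% hold CTTTGA, 18.7% hold CTTTGT and 20.8% hold TGACG. Among the 5 matched members 0 held CTTTGA, 1 held CTTTGT and 0 held TGACG. Shown are Lgr4 as the R-spondin receptor (chr2:109917397-109917696, plus strand), Axin2 as the beta-catenin target (chr11:108920099-108920398, plus strand) and Dkk2 as the entry with a match (chr3:132085042-132085341, plus strand), with the match in capitals.
Lgr4: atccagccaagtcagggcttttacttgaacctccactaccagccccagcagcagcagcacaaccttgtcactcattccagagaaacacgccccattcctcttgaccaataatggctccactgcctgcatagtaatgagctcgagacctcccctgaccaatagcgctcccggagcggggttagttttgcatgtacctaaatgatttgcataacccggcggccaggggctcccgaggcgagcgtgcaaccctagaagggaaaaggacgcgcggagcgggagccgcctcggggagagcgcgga
Axin2: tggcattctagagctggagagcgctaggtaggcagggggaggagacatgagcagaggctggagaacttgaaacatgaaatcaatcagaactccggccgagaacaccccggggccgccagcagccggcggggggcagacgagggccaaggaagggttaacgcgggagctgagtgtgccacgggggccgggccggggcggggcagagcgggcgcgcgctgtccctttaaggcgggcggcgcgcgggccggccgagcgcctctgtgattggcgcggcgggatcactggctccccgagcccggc
Dkk2: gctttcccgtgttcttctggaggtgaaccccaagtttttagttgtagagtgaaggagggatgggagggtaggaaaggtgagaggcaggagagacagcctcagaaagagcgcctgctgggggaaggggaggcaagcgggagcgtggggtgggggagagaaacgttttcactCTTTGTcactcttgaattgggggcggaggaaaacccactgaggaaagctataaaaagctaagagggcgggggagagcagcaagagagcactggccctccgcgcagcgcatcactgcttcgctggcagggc
A match describes letters in this window only and is neither a site nor a cause. Lgr4 and Axin2 have no match in these windows, and Dkk2, which has one, was dim on these arrays.

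After Benjamini-Hochberg adjustment over the whole table, limma called 0 of the 22 member probe sets, and 0.0% of all 45037. Unadjusted p-values under 0.05 were found for 3 of the 22, all higher, namely the Rspo2 probe set and 2 of Sfrp1. Without the replicate block 1 of the 22 was left, Rspo2, and both Sfrp1 probe sets lost it. The count was also 1 without experiment 2, and 2 without experiment 1, where 1 Sfrp1 probe set stayed. Without experiment 3 neither Sfrp1 probe set was among the 3, which were Rspo2 and Lgr4, higher, and the dim Rspo3 1443187_at, lower at -0.46. With the intensity trend 5 were higher, and with array weights 4 were higher and that Rspo3 probe set was lower at -0.36. In the main fit 3.86% of all probe sets were higher and 4.2% lower by that measure, 3631 of 45037 together. The number over all probe sets also moved with the setting. It was 2168 without the block and 1692, 2709 and 3748 without experiments 1, 2 and 3. With the intensity trend it was 3921, and with array weights 4824. In all 3 experiments 10 of 22 were higher and 1 was lower, against 15.3% and 13.8% of all probe sets. Rspo2 was the 1 probe set whose groups did not overlap, where 4.53% of all probe sets had every irradiated array above every control array and 4.82% every one below. A mean difference above 0 was found for 17 of 22 (52.0% of all probe sets), which were the 14 above the dim level (49.5% of the 16111) and 3 of the 8 dim ones. The median over the 22 was 0.11 beside 0.01 for all probe sets. The member choice used this contrast, so nothing is read from these counts. Over the same pairs each of the 8 macrophage markers was lower on average, with a list median of -0.10. In experiment 2 that median was 0.005. In all 3 experiments 4 of the 8 were lower, beside 2997 of the 16111 probe sets above the dim level. The part of these markers in the member values was not tested. The 14 counted as higher were 13 without experiment 1, where Rspo3 turned, and 13 without experiment 3, where Wnt5a turned.

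**Figure D2:**
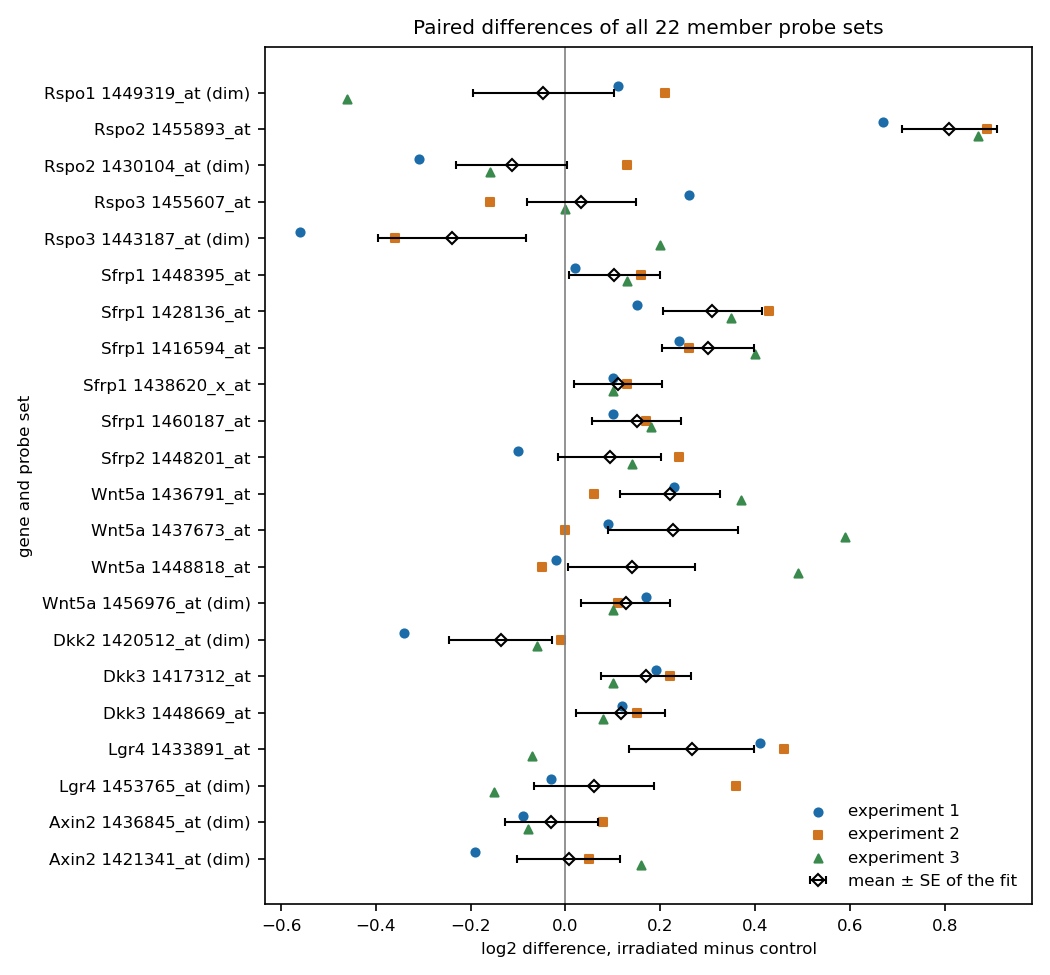
Log2 difference, irradiated minus control (x axis), in each experiment and as the mean with its SE for all 22 member probe sets (y axis), with dim ones marked. Rspo2 1455893_at stands at 0.81, the Sfrp1 and Dkk3 probe sets lie between 0.10 and 0.31 with 3 positive points each, and Axin2 lies at 0.

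The levels of several members also varied between the 3 experiments, though none passed after adjustment in the main fit. This comparison was not used to choose the genes. Each experiment was summarised by the mean of its irradiated and control array, and the experiments were compared by limma's moderated F test in the same fit. Wnt5a spread the most. On probe set 1448818_at the experiment means were 7.32, 6.98 and 6.20, a range of 1.13 on the log2 scale. On 1436791_at they were 8.55, 8.11 and 7.80 and on 1437673_at 7.29, 6.78 and 6.57, so the order was the same on all 3 probe sets above the dim level. Dkk3 had the same order on 1417312_at, at 11.83, 11.46 and 11.30, and Rspo2 was highest in experiment 1, at 9.06 against 8.63 and 8.69.

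After adjustment over all probe sets 0 of 22 member probe sets passed this F test, beside 0.00444% of all probe sets. The lowest adjusted p among members was 0.106 for Wnt5a 1448818_at, with an unadjusted p of 0.000919. An unadjusted p under 0.05 was found for 9 of 22 member probe sets, beside 15.1% of all probe sets. Of the 14 above the dim level it was found for 8, beside 21.0% of the 16111. Probe sets of 1 gene are not independent of each other, so these are not counts of genes. The 9 were all 3 Wnt5a probe sets above the dim level, both of Dkk3, 2 of Sfrp1, the Rspo2 probe set and the dim Dkk2. With an intensity trend and a robust prior Wnt5a 1448818_at (limma adjusted p = 0.0347) and Dkk3 1417312_at (limma adjusted p = 0.0316) passed, among 1.59% of all probe sets. Over the 8 alternatives of this test the adjusted p ran from 0.0347 to 0.950 for that Wnt5a probe set and from 0.0316 to 0.950 for that of Dkk3, highest without experiment 1. Rspo3 and Lgr4 had the narrowest ranges between experiments among the 14, at 0.06 and 0.18.

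Macrophage transcripts varied between the experiments as well. By the same limma F test 0 of the 8 markers passed after adjustment, with a lowest adjusted p of 0.102. Unadjusted, 7 of the 8 had a p under 0.05, beside 21.0% of the 16111 probe sets above the dim level. The mean log2 level of the 8 macrophage markers was 11.69, 12.21 and 12.30 in experiments 1, 2 and 3, the opposite order to the 3 Wnt5a probe sets above the dim level and to Dkk3 1417312_at. The other Dkk3 probe set, 1448669_at, was also highest in experiment 1 but had means of 11.33, 10.99 and 11.00. Stromal markers had means of 7.70, 7.60 and 7.58 and fat cell markers 11.98, 12.02 and 11.91. The part of these markers in the differences of Wnt5a and Dkk3 was not tested, and cell number, cell makeup and level per cell cannot be told apart here. In experiments 1, 2 and 3 the hybridisation controls read 11.08, 10.85 and 11.23 on control arrays. On irradiated arrays they read 11.16, 10.82 and 11.73, and their part was not tested either.

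**Figure D3:**
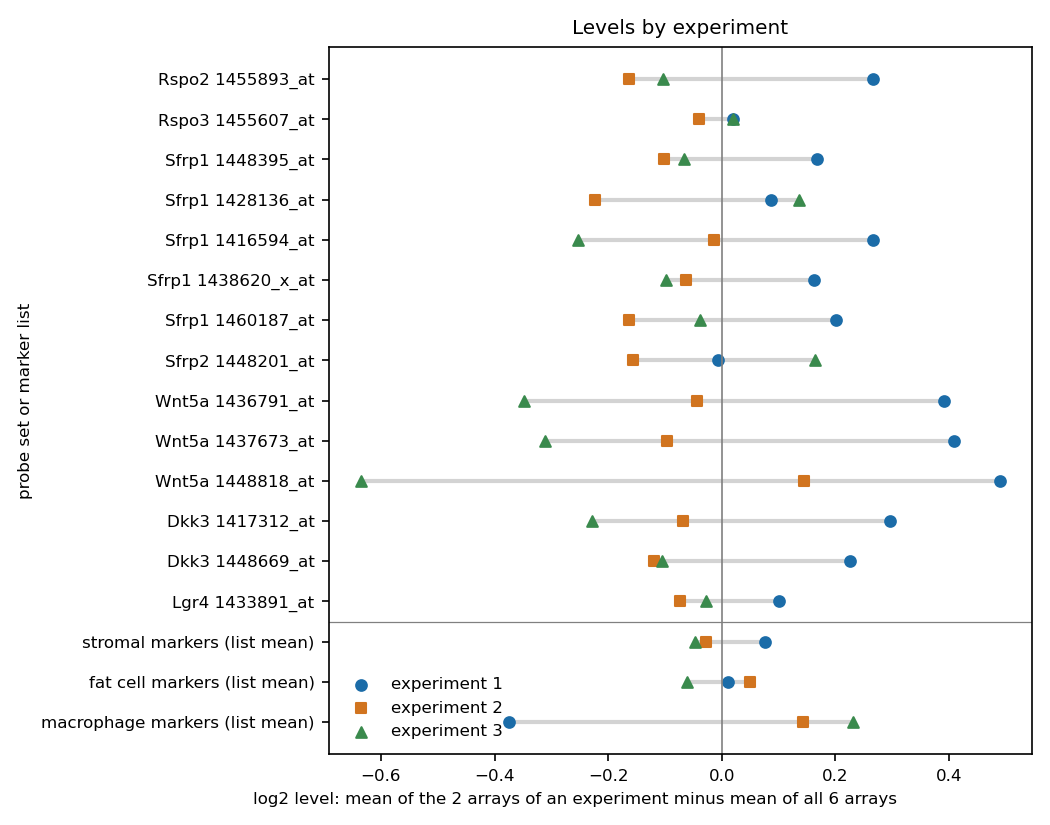
Log2 level of each experiment, as the mean of its control and irradiated array minus the mean of all 6 arrays (x axis), for the 14 member probe sets above the dim level and for 3 marker lists. Wnt5a and Dkk3 are highest in experiment 1, where their widest probe sets have means of 7.32 and 11.83 before this subtraction. The macrophage list is lowest there, with a mean of 11.69 before it.

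Other genes of the pathway were counted by role, with 1 probe set a gene. Of 102 measured genes 61 were above the dim level. None passed the limma adjusted threshold (0.0% of 9173 genes above the dim level), and at an unadjusted p under 0.05 there were 9 higher and 5 lower of 61, beside 4.49% and 6.02% of those 9173 genes. The median log2 difference of the 61 was 0.07, and of all genes above the dim level 0.00. Daam2 among the 9 and Lgr6 among the 5 had means under the dim level in the group where they were lower. In 7 of the 61 every irradiated array was above every control array and in 4 below, beside 487 and 643 of the 9173. These values carry no call, and the named genes are those with the largest statistics in each list except where stated. That choice favours genes with 1 direction in all 3 experiments, which 1703 of the 9173 genes had upwards and 1701 downwards.

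Receptors spread the widest and in both directions. Of 19 measured receptors and receptor ligases 13 were above the dim level, with 3 higher and 4 lower at an unadjusted p under 0.05. The Frizzled receptor genes Fzd5, Fzd7 and Fzd2 were lower in each of the 3 experiments. Fzd5 read 9.51, 9.76 and 10.01 in controls and 9.06, 9.18 and 8.90 in irradiated cultures, a difference of -0.71 ± 0.15 (SE) with no overlap between groups. Fzd7 differed by -0.47 ± 0.12 (SE), also with no overlap, and Fzd2 by -0.46 ± 0.12 (SE), where the groups overlapped. The other Frizzled genes were named after their values were seen. Fzd3 differed by 0.30, -0.09 and 0.27. Fzd6 and Fzd9 were dim, as was Fzd10, which differed by 0.26 ± 0.09 (SE). Higher in each experiment were Fzd4 at 0.33 ± 0.13 (SE) with no overlap between groups, Fzd8 at 0.23 ± 0.10 (SE) and Fzd1 at 0.17 ± 0.10 (SE). Ror1, a receptor for Wnt5a, was also higher in each experiment, by 0.35, 0.32 and 0.33, with a mean of 0.33 ± 0.09 (SE). The R-spondin receptor gene Lgr6 and the ligase gene Znrf3 were likewise named after their values were seen. Lgr6 was lower in each experiment, at -0.25 ± 0.09 (SE), and Znrf3 was higher in each, at 0.31 ± 0.13 (SE). Lgr6 had means of 6.23 in controls and 5.98 in irradiated cultures, so its irradiated mean was under the dim level. The median was 0.16 over the 13 above the dim level and 0.10 over all 19 measured. The latter became 0.02 with all probe sets of a gene averaged.

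Genes of planar polarity and other noncanonical Wnt signals had 3 higher and 0 lower of the 8 above the dim level. Over all 12 measured there were 3 higher and 1 lower, the dim Invs at -0.31 ± 0.11 (SE), named after its values were seen. Prickle1, a cytoplasmic planar polarity protein, read 6.19, 6.14 and 6.30 in controls and 6.91, 6.63 and 6.74 in irradiated cultures. Its groups did not overlap, and the difference was 0.55 ± 0.10 (SE). Prickle2 differed by 0.33 ± 0.10 (SE), Daam2 by 0.31 ± 0.10 (SE) and Vangl1 by 0.16 ± 0.09 (SE). All 4 had 1 direction in all 3 experiments and no overlap between groups. Genes named for a large statistic are likely to have both, so nothing is read from this. The median over all 12 measured genes was -0.02, or 0.03 with all probe sets of a gene averaged.

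Nuclear effectors had 2 higher and 0 lower of 10. These were the Groucho-type corepressors Tle1 at 0.38 ± 0.11 (SE) and Tle3 at 0.24 ± 0.10 (SE), while Tle4 differed by 0.17 and the TCF factor gene Tcf7l1 by 0.09. In the cytoplasmic list 1 gene was higher and 1 lower of 11, Tnks, whose product marks Axin for degradation, at 0.23 ± 0.10 (SE) and Apc, a part of the beta-catenin degradation complex, at -0.27 ± 0.10 (SE). Dvl1 differed by -0.14 and Gsk3a by -0.11.

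Ligands, the other secreted modulators and target genes had none of their members above the dim level at an unadjusted p under 0.05. Dim genes under it, named after their values were seen, were the target Fgf18 at -0.45 ± 0.10 (SE) and the ligand Wnt2 at 0.46 ± 0.15 (SE). Of 6 ligand and secretion genes above the level, Wnt7a differed by 0.24, Wnt7b by -0.20, Wls, which carries Wnts to the surface, by 0.11 and Wnt4 by -0.08. Among 6 secreted or membrane modulators Apcdd1 differed by 0.18, Igfbp4 by 0.21, Kremen1 by 0.09 and Sfrp4 by 0.07. Of 7 target genes Myc differed by 0.71, -0.20 and 0.82, a mean of 0.44 ± 0.20 (SE) that changed sign between experiments. Twist1 differed by 0.18, Tnfrsf19 by 0.11 and Ccn5 by 0.07.

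**Figure D4:**
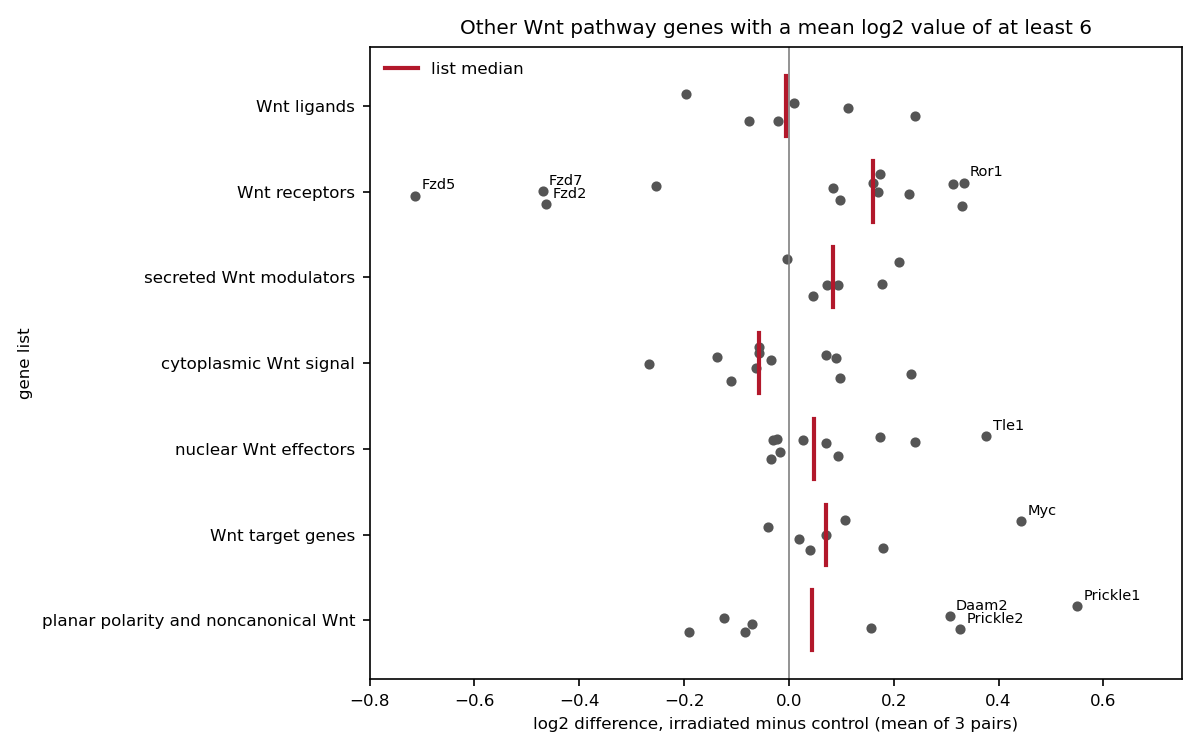
Mean log2 difference, irradiated minus control (x axis), of the 61 other Wnt pathway genes above the dim level, by role (y axis), with the median of each list as a red line. Receptors run from -0.71 for Fzd5 to 0.33 for Ror1, and Prickle1 is the highest of all at 0.55.

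The genes whose log2 values over the 6 arrays were most like those of Rspo2 were Kctd18, Mmadhc, Pop4, Use1 and Chd2, with Pearson r between 0.989 and 0.998. They were the nearest of 9172 genes above the dim level, and with 6 arrays some high values are found among so many. Their irradiated minus control differences ran from 0.15 for Mmadhc to 0.36 for Chd2, all smaller than that of Rspo2. The positive direction follows from choosing these genes by likeness to Rspo2, so nothing is read from it. The points share their arrays and the pairing, so the likeness is a description.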

How the data were processed

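Expression was measured on 1 Affymetrix mouse array a sample in 6 samples. The deposited table holds log2 expression values made by the authors with RMA, with affy and limma named beside it, per the submitters' processing notes. No source used here gives versions, the build or which arrays were normalized together. RMA pulls arrays to a common distribution, so a shift of most genes would not show.

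Of 45101 probe sets 64 array controls were left out. Symbols came from the platform annotation: 34945 probe sets carry 1, 932 several and 9160 none. Irradiated cultures were set against their controls in limma 3.58.1 under R 4.3.3 (lmFit and eBayes, two-sided, Benjamini-Hochberg over all 45037 probe sets, threshold 0.05), with the experiment as a block. The pairing comes from the design text, and deviations of the paired arrays correlated at 0.771, 0.098 and 0.366 over probe sets. The irradiated array of experiment 2 was most like the control of experiment 3, so the values themselves do not settle the pairing. With 2 residual degrees of freedom, the fit was tested on simulated data. The members and lists were chosen with earlier results of these data known. Named genes were all members, and per list up to 4 above the dim level with the largest statistics. Pathway genes named after their values were seen are marked as such. For Rspo2 the 5 most correlated genes were added. Kremen2, Tcf7, Ly6a and Plin1 are not analysed here. Ccn4, Ccn5 and Adgre1 were matched by older symbols where needed. Alternatives were no or a random block, each experiment left out, 2 other scalings, dim probe sets left out, an intensity trend and array weights.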

Additional observations from a re-analysis of the deposited data

How the results depend on the processing

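For irradiated against control cultures 0 probe sets passed the adjusted threshold with the experiment as a block, and 0 without the replicate block, without each experiment in turn (0 to 0), with quantile normalization, median centring, dim probe sets left out, an intensity trend or array weights. With a random block 2 passed, Gem and Rhpn2, neither a member. At an unadjusted p under 0.05 there were 3631, or 2168 without the replicate block, 1692 without experiment 1 and 2155 of 16111 with dim probe sets left out. No member call changed with the block, since none was made. For the difference between experiments 2 probe sets passed, those of the chemokines Cxcl13 and Ccl8, named after their values were seen. The count was 0 to 0 with an experiment left out, where 4 arrays remain, 237 with dim probe sets left out, 716 with an intensity trend and a robust prior and 92 with array weights. The cause was not tested. Of 132 recomputed member differences 10 changed sign or became 0, all of them on Rspo1, Rspo3, Wnt5a, Lgr4 or Axin2. Of 7 list medians 3 moved by more than their spread with all probe sets of a gene averaged. Dim signal limits Rspo1, Dkk2 and Axin2.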
